A study of Mus musculus with 12 samples.

Results

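The genes described here are *Dppa2*, *Dppa3*, *Dppa4*, *Dppa5a*, *Tdh*, *Fbxo15*, *Gdf3*, *L1td1* and *Tcl1*, which are known for high expression in mouse embryonic stem cells (ESCs). They were taken by symbol from the deposited expression table, and all 9 were found among 47940 genes used. Polyadenylated RNA had been sequenced from 3 lines of mouse ESCs grown in 15% serum with LIF, with 2 libraries per line from separate dishes. The parental line was unmodified. ESC + H/F-PRAMEL7WT carried an HA/FLAG-tagged *Pramel7* at the *Rosa26* locus under the ubiquitous CAG promoter. ESC + H/F-PRAMEL7ΔN carried the same construct without its N-terminus, given as 50 amino acids in the sample labels. PRAMEL7 is a protein of the early embryo that binds the ubiquitin ligase subunit CUL2, and the truncated form served to ask which changes need this contact. Clones of both derived lines had been grown from single cells, so the transgene and the history of a clone cannot be told apart. P values below measure the spread between dishes of a line only.

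ESCs keep a transcript set that is shared with the inner cell mass and is lost on differentiation. The Dppa genes (developmental pluripotency associated) were named from such a pattern but are not one family. *Dppa2* and *Dppa4* encode SAP-domain proteins that bind each other and chromatin, *Dppa3* encodes a factor of oocytes and germ cells that acts on DNA methylation, and *Dppa5a* encodes a KH-domain protein. The other genes belong to other pathways. *Tdh* is the mitochondrial threonine dehydrogenase, *Gdf3* a ligand of the TGFβ superfamily, *Tcl1* a coactivator of the kinase AKT, *Fbxo15* an F-box protein and *L1td1* an RNA-binding protein derived from a LINE-1 element.

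The libraries held 18252956 to 19853870 reads on genes. Values are CPM, reads on genes scaled to a common library total, recovered from the deposited RPKM. Among values of at most 20 reads, 98.1 to 98.4% per library came within 0.1 of a whole read. *Pramel7* had 0.258 and 0.217 CPM in parental ESCs, 51.2 and 46.2 with H/F-PRAMEL7WT and 398 and 431 with H/F-PRAMEL7ΔN, without a separation of inserted and endogenous copies. The derived lines thus also differed in *Pramel7* RNA level, which cannot be told apart from the deletion when they are compared. All 9 ESC markers of a fixed list were above 1 CPM in the 6 libraries and summed to 4580 to 5181 CPM. Markers of other cell types summed to less, with 6.95 to 12.0 CPM for primitive endoderm, 89.9 to 133 for trophectoderm, 21.1 to 55.6 for fibroblasts or feeders, 0.456 to 1.29 for mesendoderm and 16.1 to 19.0 for neural cells. The fibroblast list was mixed. *Dcn* and *Lum* were at 0 in all 6 libraries, whereas *Thy1*, *Col1a1* and *Col1a2* were above 0 in all 6. *Thy1* was the highest of this list in every library. Of the 9 ESC markers, *Utf1* was called higher and *Nanog*, *Zfp42* and *Tdgf1* lower in ESC + H/F-PRAMEL7WT than in parental ESCs, and 0 were called in ESC + H/F-PRAMEL7ΔN by limma or by voom on the recovered reads, where limma's unadjusted p passed 0.05 for 1 higher and 2 lower. Of 4 tested primitive endoderm markers, *Gata4* was called higher and *Pdgfra* lower in both derived lines, and *Sox7* higher in ESC + H/F-PRAMEL7WT. Of 4 tested trophectoderm markers, *Eomes*, *Krt8* and *Krt18* were called higher and *Tfap2c* lower in ESC + H/F-PRAMEL7ΔN, and *Krt18* was called lower in ESC + H/F-PRAMEL7WT. *Col1a1* and *Thy1*, the 2 tested fibroblast markers, were called lower in ESC + H/F-PRAMEL7WT. Of 3 tested neural markers 0 were called in either line by limma, also by its unadjusted p, or by voom, and no mesendoderm marker passed the filter. Limma called 25% of all tested genes in ESC + H/F-PRAMEL7WT and 19.9% in ESC + H/F-PRAMEL7ΔN against parental ESCs. The part of the marker changes in the values of the 9 genes was not tested. In bulk RNA, fewer expressing cells and less RNA per cell cannot be told apart. Replicate variance was 26.2-fold that of counting alone for the parental line, 4.96-fold for ESC + H/F-PRAMEL7WT and 9.62-fold for ESC + H/F-PRAMEL7ΔN.

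All 9 genes exceeded 1 CPM in at least 2 libraries and were tested with limma on log2(CPM + 1) together with 12914 genes in all. A gene was called at a Benjamini-Hochberg adjusted p under 0.05. In ESC + H/F-PRAMEL7WT against parental ESCs, 1 of the 9 was called, *Dppa3*, which was lower. Over all tested genes 25% were called in this comparison, 8.71% higher and 16.3% lower. With median-ratio scaling the split over all tested genes was 1673 higher and 1495 lower, in place of 1125 and 2109, and for ESC + H/F-PRAMEL7ΔN 1122 and 1368 in place of 807 and 1759. No member rose, also by the unadjusted p and by voom on the recovered reads (0 of 9). In ESC + H/F-PRAMEL7ΔN against parental ESCs, 5 of 9 were called, against 19.9% of all tested genes. *Dppa4*, *Dppa5a* and *Gdf3* were higher (3 of 9, background 6.25%), and *Dppa3* and *Fbxo15* were lower (2 of 9, background 13.6%). Between the derived lines, *Fbxo15* and *Tcl1* were higher in ESC + H/F-PRAMEL7WT and none was lower, which is 2 of 9 against 20.4% of all tested genes (10.9% higher and 9.44% lower). At an unadjusted p under 0.05, 3 members were higher and 3 lower in that comparison. The median log2 fold change of the 9 was 0.05, -0.07 and -0.16 in the 3 comparisons, against -0.08, -0.06 and -0.02 over all tested genes. The comparisons with parental ESCs share the parental libraries.

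**Figure D1:**
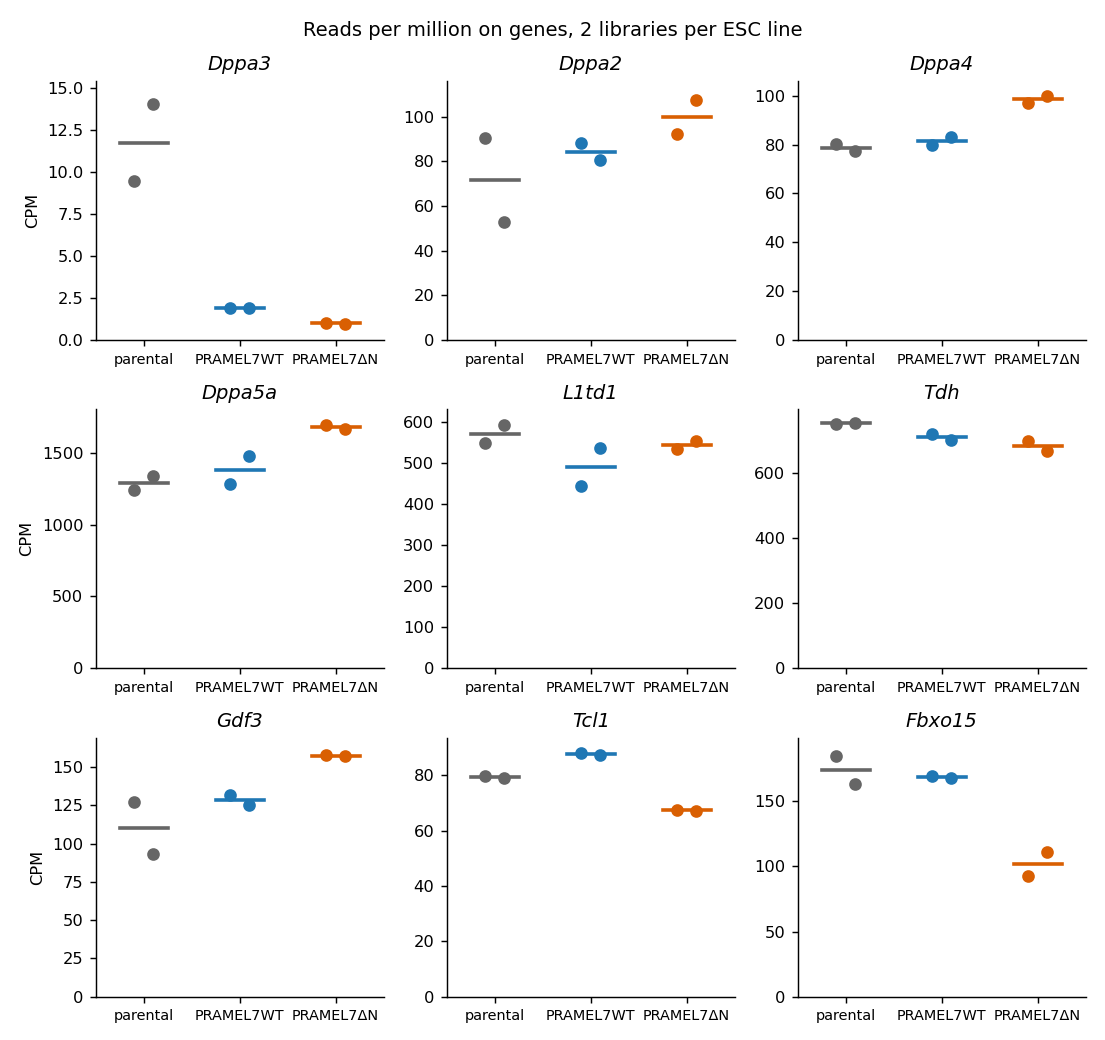
CPM of each of the 9 genes (y axis, from 0) in parental ESCs, ESC + H/F-PRAMEL7WT and ESC + H/F-PRAMEL7ΔN (x axis). Points are the 2 libraries of a line and bars their mean; *Dppa3* is near the base in both derived lines, at 0.95 to 1.92 CPM, and *Fbxo15* and *Tcl1* have their lowest libraries in ESC + H/F-PRAMEL7ΔN.

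**Figure D2:**
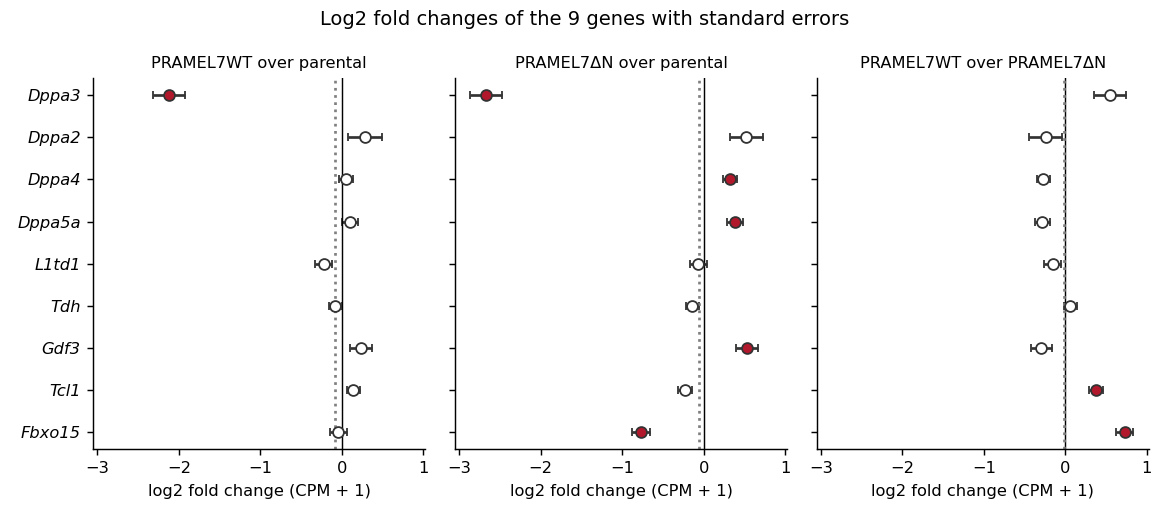
Log2 fold changes on the log2(CPM + 1) scale (x axis) with standard errors for the 9 genes (y axis) in the 3 comparisons. Filled points have a limma adjusted p under 0.05 and dotted lines mark the median of all 12914 tested genes; *Dppa3* lies far to the left in both comparisons with parental ESCs, at -2.12 and -2.67.

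The order of the genes by level per exon length differed little between the lines at its top and bottom. *Dppa5a* was highest with 2078 CPM per kb of exon in parental ESCs, followed by *Tdh* with 288 and *L1td1* with 179.8. These 3 kept their places in all 3 lines, with no overlap of libraries between neighbours. *Dppa3* was the lowest in every line, at 13.2, 2.13 and 1.10 CPM per kb of exon. In the middle of the order, *Fbxo15* came after these 3 in parental ESCs with 51.7 CPM per kb of exon and next to last in ESC + H/F-PRAMEL7ΔN with 30.3. *Dppa4*, *Gdf3* and *Tcl1* stood between 43.0 and 47.4 CPM per kb of exon in parental ESCs, where the libraries of *Dppa4* and *Gdf3*, and of *Gdf3* and *Tcl1*, overlapped. In ESC + H/F-PRAMEL7WT the libraries of *Fbxo15* and *Dppa4* overlapped, at 50.1 and 49.0 CPM per kb of exon. In ESC + H/F-PRAMEL7ΔN no neighbours in the order overlapped.

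**Figure D3:**
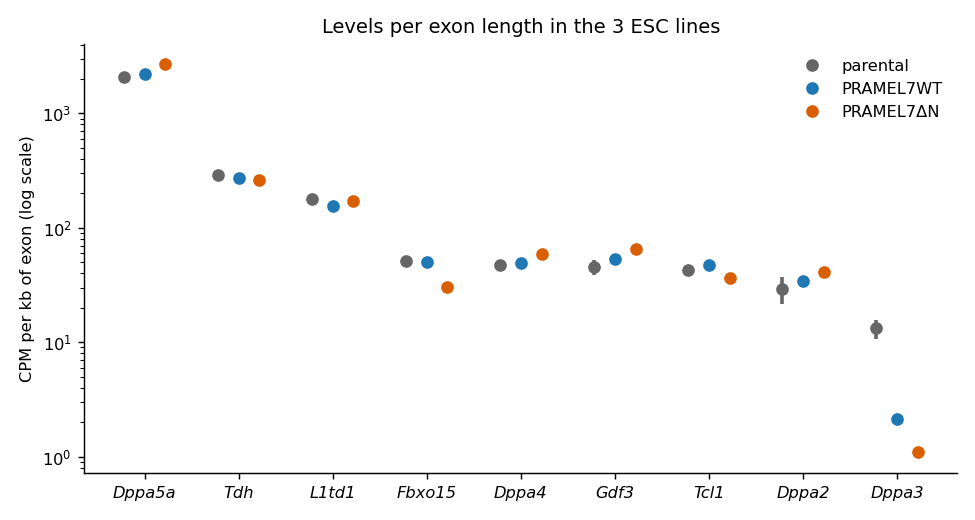
Mean CPM per kb of exon (y axis, log scale) of the 9 genes (x axis, ordered by parental ESCs) in the 3 lines. Points are means of 2 libraries and vertical bars span them where they exceed the point; *Dppa5a* is highest at 2078 to 2708 and *Dppa3* lowest at 1.10 to 13.2.

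*Dppa3*, also known as Stella or PGC7, shields the maternal genome from demethylation in the zygote and binds UHRF1, which guides maintenance methylation. It lies on chromosome 6 (mm10, 122626410 to 122630272, plus strand, ENSMUSG00000046323.8). In parental ESCs it had 9.50 and 14.0 CPM, from 184 and 259 reads. In ESC + H/F-PRAMEL7WT it had 1.92 and 1.87 CPM (38 and 34 reads) and in ESC + H/F-PRAMEL7ΔN 1.00 and 0.95 CPM (20 and 18 reads). Every library of both derived lines was thus below both parental libraries. The means were 11.8 ± 3.22, 1.90 ± 0.0365 and 0.977 ± 0.0379 CPM (SD, n = 2), which makes parental ESCs 6.20-fold higher than ESC + H/F-PRAMEL7WT and 12.0-fold higher than ESC + H/F-PRAMEL7ΔN. On the log2(CPM + 1) scale, which understates changes of low genes, the fold change was -2.12 (standard error 0.20, limma adjusted p = 0.000527) and -2.67 (standard error 0.20, adjusted p = 5.02e-05). Between the derived lines *Dppa3* was 1.94-fold higher in ESC + H/F-PRAMEL7WT, with no overlap of libraries but a limma adjusted p of 0.0761, which was 0.0179 and 0.0190 without parental library 1 or 2. With a pseudocount of 5 the fold changes against parental ESCs shrank to -1.27 and -1.48, and with 0.1 they were -2.54 and -3.44. The pseudogene *Dppa3-ps*, which matches the transcript at 98.2% over 451 bases, had 0 reads in all libraries.

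*Gdf3* lies 16323 bases from *Dppa3* on the other strand (chromosome 6, mm10, 122605403 to 122610087, minus strand, ENSMUSG00000030117.5). GDF3 is a ligand related to Nodal and a known inhibitor of BMP signals. It had 127 and 92.9 CPM in parental ESCs, 131 and 125 with H/F-PRAMEL7WT, and 158 and 157 with H/F-PRAMEL7ΔN. Its 2 libraries in ESC + H/F-PRAMEL7ΔN were above all others, while those of ESC + H/F-PRAMEL7WT overlapped with parental ESCs. *Gdf3* rose by 0.53 on the log2 scale in ESC + H/F-PRAMEL7ΔN (standard error 0.13, limma adjusted p = 0.0203), and the difference was 0.24 in ESC + H/F-PRAMEL7WT (adjusted p = 0.209). Its rise lost the call with no filter (adjusted p = 0.0779), limma without trend (0.0591) and RPKM as deposited (0.0748). The rise in ESC + H/F-PRAMEL7ΔN was no longer called without either library of that line (adjusted p = 0.119 and 0.110). Without parental library 1, the value in ESC + H/F-PRAMEL7WT was 0.46 and called (adjusted p = 0.00104). Without parental library 2 it was 0.0120 (adjusted p = 0.929), and the value in ESC + H/F-PRAMEL7ΔN was 0.31, still called (adjusted p = 0.0201).

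The direction of *Gdf3*, but not that of *Dppa3*, in ESC + H/F-PRAMEL7ΔN was that of the chromosome. The 601 other tested genes of chromosome 6 had a median log2 fold change of 0.25 in this line against parental ESCs, the highest of 20 chromosomes with at least 100 tested genes, and 184 of them were called higher and 102 lower. In ESC + H/F-PRAMEL7WT the median was -0.26, with 22 called higher and 188 lower. Within 5 Mb of *Dppa3*, 92 other tested genes had medians of 0.34 and -0.21 in the respective lines. Relative to these medians, *Gdf3* stood at 0.19 in ESC + H/F-PRAMEL7ΔN and 0.45 in ESC + H/F-PRAMEL7WT, and *Dppa3* at -3.00 and -1.91. The part of the chromosome-wide shift in the values of both genes was not tested.

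Among protein-coding genes within 250 kb of *Dppa3*, 7 besides *Gdf3* were tested. By limma's adjusted p, 5 of them fell and none rose in ESC + H/F-PRAMEL7WT, whereas 4 rose and none fell in ESC + H/F-PRAMEL7ΔN. Of all tested genes, 16.3% were called lower in the first line and 6.25% higher in the second. Of the 92 other tested genes within 5 Mb, 23 were called lower and 7 higher in the first line. In the second, 41 of the 92 were called higher and 5 lower. *Apobec1*, an RNA-editing deaminase that lies 2959 bases from *Gdf3* and 23966 from *Dppa3*, fell by 0.52 in the first and rose by 0.61 in the second (adjusted p = 0.0128 and 0.00651). *Nanog*, the pluripotency factor 77217 bases from *Dppa3*, had 586 ± 45.9, 454 ± 0.357 and 662 ± 42.8 CPM in the 3 lines (SD, n = 2). Its fall in ESC + H/F-PRAMEL7WT was called (log2 fold change -0.36, adjusted p = 0.0178), while its 0.18 in ESC + H/F-PRAMEL7ΔN was not (adjusted p = 0.209). None of the 7 moved as far down as *Dppa3*. The lowest was *Mfap5*, a microfibril protein, at -1.03 in ESC + H/F-PRAMEL7WT (adjusted p = 0.00995).

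**Figure D4:**
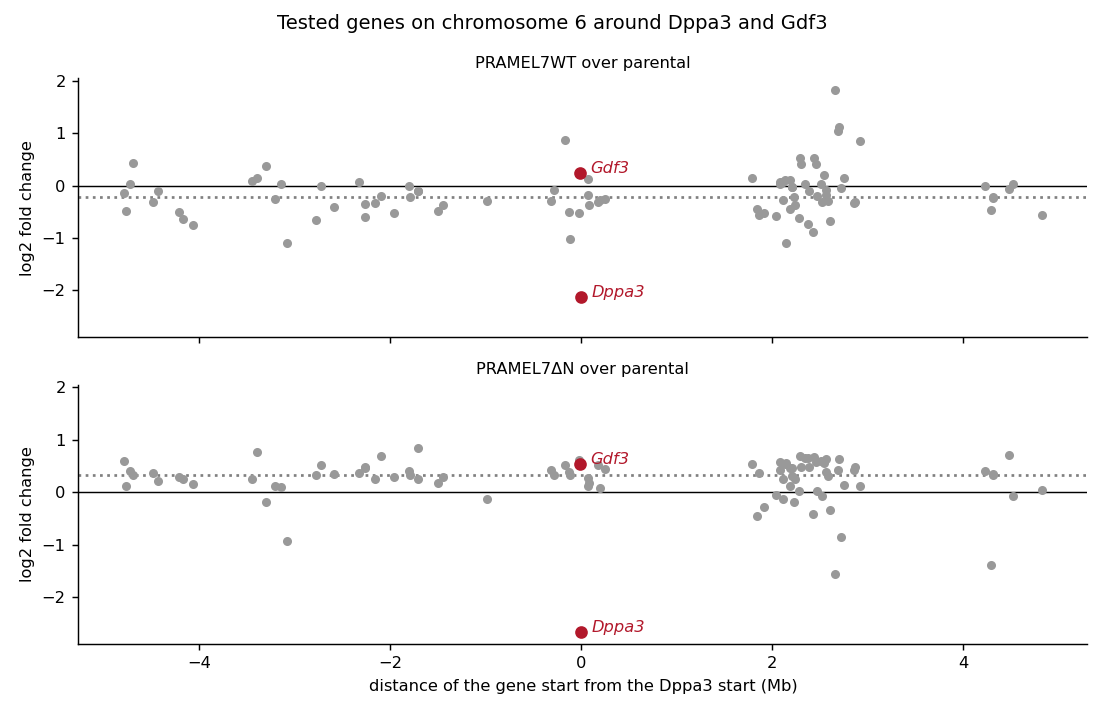
Log2 fold changes over parental ESCs (y axis) of tested genes within 5 Mb of *Dppa3* by distance from its start (x axis, Mb), for ESC + H/F-PRAMEL7WT (top) and ESC + H/F-PRAMEL7ΔN (bottom). Red points are *Dppa3* and *Gdf3*, grey points the 92 other genes and dotted lines their median, at -0.21 and 0.34; *Dppa3* lies below all grey points in both panels.

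*Dppa3* acts through the DNA methylation machinery, of which a fixed list held 11 genes, all tested. Of these, 2 rose and 2 fell in ESC + H/F-PRAMEL7WT, and 3 rose and 2 fell in ESC + H/F-PRAMEL7ΔN. The called share of all tested genes was 25% and 19.9%. *Uhrf1* RNA rose in both lines, from 552 CPM to 713 and 715 (log2 fold change 0.37 in each, limma adjusted p = 0.0115 and 0.0118). The paper, whose gene calls had a log2 limit of 0.58, reports no significant *Uhrf1* RNA change in ESC + H/F-PRAMEL7WT. It reports less UHRF1 protein in that line and unaffected protein levels in ESC + H/F-PRAMEL7ΔN. *Dnmt1*, the maintenance methyltransferase, had 492, 491 and 474 CPM, with adjusted p of 0.988 and 0.768. The de novo enzymes moved apart, since *Dnmt3b* rose in ESC + H/F-PRAMEL7WT (138 to 255 CPM, log2 fold change 0.89, adjusted p = 0.00115) and *Dnmt3a* fell in ESC + H/F-PRAMEL7ΔN (91.3 to 32.0 CPM, -1.48, adjusted p = 1.92e-05). Between the derived lines both were higher in ESC + H/F-PRAMEL7WT, by 1.17 and 1.41 (adjusted p = 0.000148 and 2.31e-05). The demethylating enzymes *Tet1* and *Tet2* fell in ESC + H/F-PRAMEL7WT (-0.48 and -0.42, adjusted p = 0.00683 and 0.0421), and *Tet2* rose in ESC + H/F-PRAMEL7ΔN (0.58, adjusted p = 0.0132). *Tet3*, of the same enzyme family, fell in ESC + H/F-PRAMEL7ΔN from 10.7 to 4.39 CPM (-1.11, adjusted p = 0.00227).

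*Dppa2* and *Dppa4* lie 9671 bases apart on the plus strand of chromosome 16 (mm10, 48303908 to 48319723 and 48283733 to 48294237, ENSMUSG00000072419.5 and ENSMUSG00000058550.15). Their proteins are known to keep developmental promoters in a bivalent state and to activate genes of the cleavage-stage embryo. *Dppa4* had 80.1 and 77.4 CPM in parental ESCs, 80.0 and 83.0 with H/F-PRAMEL7WT, and 97.1 and 99.8 with H/F-PRAMEL7ΔN. The first 4 of these overlapped and the last pair stood above them. *Dppa4* rose by 0.32 on the log2 scale in ESC + H/F-PRAMEL7ΔN (standard error 0.09, limma adjusted p = 0.0287), a 1.25-fold higher mean, and differed by 0.05 in ESC + H/F-PRAMEL7WT (adjusted p = 0.704). Its rise lost the call with only the compared lines (adjusted p = 0.0787), limma without trend (0.0703) and RPKM as deposited (0.0552). This call was lost when any library of ESC + H/F-PRAMEL7WT or ESC + H/F-PRAMEL7ΔN was left out, with adjusted p from 0.0792 to 0.163 and log2 fold changes from 0.30 to 0.34.

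*Dppa2* had the widest spread between parental libraries relative to its mean among the 9 genes, with 90.3 and 52.6 CPM. In ESC + H/F-PRAMEL7WT it had 88.0 and 80.5 CPM, inside the parental range, and in ESC + H/F-PRAMEL7ΔN 92.1 and 108 CPM, above it. The log2 fold changes of 0.28 and 0.52 (standard error 0.20 each) were not called, with limma adjusted p of 0.326 and 0.103. These values turned on 1 parental library. Without parental library 1 they were 0.67 and 0.91 (adjusted p = 0.000199 and 7.97e-06), and without parental library 2 they were -0.10 and 0.14 (adjusted p = 0.491 and 0.383). Near-identical pseudogene copies of *Dppa2* and *Dppa4*, 2 for each gene at 95% identity or more, carried 0.103 to 0.285% and 1.02 to 1.72% of the joint reads per library.

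The neighbourhood of both genes did not move with *Dppa4*. *Morc1*, a silencer of transposons in germ cells 111514 bases from *Dppa2*, was the only other tested protein-coding gene within 250 kb. It fell in ESC + H/F-PRAMEL7ΔN from 141 ± 8.69 to 94.8 ± 6.48 CPM (SD, n = 2, log2 fold change -0.57, limma adjusted p = 0.00384). The 27 other tested genes within 5 Mb had medians of -0.21 in ESC + H/F-PRAMEL7WT and -0.20 in ESC + H/F-PRAMEL7ΔN, with 0 called higher and 5 lower in each.

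Genes that *Dppa2* and *Dppa4* are known to activate were mostly silent in all lines. Of 29 cleavage-stage genes on a fixed list, such as the *Zscan4*, *Tdpoz* and *Usp17l* families, 26 were in the table. In every library 25 of these were below 1 CPM, and 14 had 0 reads in every library, which allows up to 3 reads per library and covers counting error only. Members of these families are near copies, so their reads may be split. Only *Eif1a*, a translation factor with 267, 245 and 281 CPM, was tested, and it was not called in any comparison (limma adjusted p = 0.409, 0.699 and 0.222). Of 11 germline genes on a second list, 9 were tested. Among them 1 fell in ESC + H/F-PRAMEL7WT and 2 in ESC + H/F-PRAMEL7ΔN, while 0 rose in either line. Of all tested genes 16.3% and 13.6% were called lower, and 8.71% and 6.25% higher. *Syce1*, a synaptonemal complex protein, fell in both lines, from 13.1 CPM to 8.75 and 5.14 (log2 fold change -0.53 and -1.20, adjusted p = 0.0292 and 0.000831). *Mael*, a factor of the piRNA pathway, fell in ESC + H/F-PRAMEL7ΔN from 18.1 to 10.9 CPM (-0.69, adjusted p = 0.00607). Between the derived lines, 4 of the 9 tested germline genes were called higher in ESC + H/F-PRAMEL7WT and 1 lower. Of all tested genes 10.9% were called higher and 9.44% lower in that comparison.

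*Dppa5a*, also known as Esg1, lies on chromosome 9 (mm10, 78367052 to 78368177, minus strand, ENSMUSG00000060461.5). Its share of all CPM was 0.129% for parental ESCs and 0.169% for ESC + H/F-PRAMEL7ΔN. The libraries had 1238 and 1335 CPM in parental ESCs, 1285 and 1479 with H/F-PRAMEL7WT, and 1691 and 1661 with H/F-PRAMEL7ΔN. Values of the first 2 lines overlapped, and ESC + H/F-PRAMEL7ΔN stood above both. *Dppa5a* rose 1.30-fold in ESC + H/F-PRAMEL7ΔN (log2 fold change 0.38, standard error 0.10, limma adjusted p = 0.0215), against 0.10 in ESC + H/F-PRAMEL7WT (adjusted p = 0.466). This rise lost its call with no filter (adjusted p = 0.0986) and with quantile normalization (0.0635). The same held for limma without trend (0.0630) and RPKM as deposited (0.0765). Without either library of ESC + H/F-PRAMEL7ΔN the call was lost (adjusted p = 0.133 and 0.103). Of 7 near-identical transcripts, 5 were in the table and held 0.534 to 1.08% of the joint reads, so that the log2 fold change of the sum in ESC + H/F-PRAMEL7ΔN was also 0.38.

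The KH-domain relatives of *Dppa5a* differed in level. Of 6 listed genes only *Khdc3* and *Ooep*, parts of a maternal complex of the oocyte cortex, were tested, and *Khdc1a*, *Khdc1c* and *Dppa1* had 0 reads in every library. *Khdc3* rose in both lines, from 34.3 CPM to 81.4 and 66.5 (log2 fold change 1.26 and 0.98, limma adjusted p = 0.00238 and 0.00651). *Ooep*, 7932 bases from *Dppa5a*, had 80.4, 95.7 and 67.6 CPM and was higher in ESC + H/F-PRAMEL7WT than in ESC + H/F-PRAMEL7ΔN (0.49, adjusted p = 0.00459). *Dppa5a* had the opposite sign in that comparison, -0.28, with an adjusted p of 0.0657.

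*Fbxo15* was the member that separated the derived lines most by its test. Its product is the substrate receptor of an SCF ubiquitin ligase, and its promoter has long served as a reporter of the ESC state. The gene lies on chromosome 18 (mm10, 84934782 to 84981473, plus strand, ENSMUSG00000034391.12). It had 184 and 163 CPM in parental ESCs, 169 and 168 with H/F-PRAMEL7WT, and 92.5 and 111 with H/F-PRAMEL7ΔN. ESC + H/F-PRAMEL7WT fell inside the parental range and ESC + H/F-PRAMEL7ΔN below all other libraries. *Fbxo15* fell in ESC + H/F-PRAMEL7ΔN, with parental ESCs 1.71-fold higher (log2 fold change -0.77, standard error 0.11, limma adjusted p = 0.00148). It differed by -0.04 in ESC + H/F-PRAMEL7WT (standard error 0.11, adjusted p = 0.804). The direct comparison gave 1.66-fold higher levels in ESC + H/F-PRAMEL7WT than in ESC + H/F-PRAMEL7ΔN (0.73, standard error 0.11, adjusted p = 0.00176). Both calls were kept under all 17 alternatives run for this gene. *Timm21* overlaps *Fbxo15* on the other strand with 0 shared exon bases and had 8.93, 8.20 and 11.5 CPM. It was not called against parental ESCs and was lower in ESC + H/F-PRAMEL7WT than in ESC + H/F-PRAMEL7ΔN (-0.45, adjusted p = 0.0452), the opposite direction to *Fbxo15*. The 20 other tested genes within 5 Mb had a median of 0.01 in ESC + H/F-PRAMEL7ΔN, with 2 called higher and 0 lower.

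The ligase partners of *Fbxo15* were measured by a list of 9 symbols, of which 8 were in the table and tested. Here 1 rose and 2 fell in ESC + H/F-PRAMEL7WT, and 1 rose and 1 fell in ESC + H/F-PRAMEL7ΔN. Called shares over all tested genes were 25% and 19.9%. *Cul1*, the scaffold of SCF ligases, rose in ESC + H/F-PRAMEL7ΔN from 109.9 to 166 CPM (log2 fold change 0.60, limma adjusted p = 0.0135). It lies on chromosome 6, whose shift is given above. *Uba3*, a subunit of the enzyme that activates NEDD8, also lies there and fell in both lines (-0.73 and -0.37, adjusted p = 0.00237 and 0.0391). *Ube2m*, which transfers NEDD8 to cullins, rose in ESC + H/F-PRAMEL7WT (0.48, adjusted p = 0.00647).

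*Tcl1* lies on chromosome 12 (mm10, 105216750 to 105222793, minus strand, ENSMUSG00000041359.14) and is known to bind AKT and raise its activity. It had 79.8 and 79.0 CPM in parental ESCs, 88.0 and 87.3 with H/F-PRAMEL7WT, and 67.5 and 67.3 with H/F-PRAMEL7ΔN. The SD between libraries was at most 0.569 CPM in each line, and no lines overlapped. Neither comparison with parental ESCs was called, with log2 fold changes of 0.14 and -0.23 (standard error 0.08, limma adjusted p = 0.241 and 0.0848). The derived lines differed by 0.37 (standard error 0.08, adjusted p = 0.0143), which is 1.30-fold higher in ESC + H/F-PRAMEL7WT. That call was lost without any of the 4 libraries of the derived lines, with adjusted p from 0.0801 to 0.129. The 51 other tested genes within 5 Mb had a median of -0.02 in the direct comparison.

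RefSeq upstream sequence was held for 2 of the 9 genes, *Tcl1* and *L1td1*. They are shown since *Tcl1* differed between the derived lines and *L1td1* was not called in any comparison. Each covers 194 bases, from 250 to 57 bases before the RefSeq start (GRCm38.p6, 5′ to 3′ on the strand of the gene), with CG dinucleotides in capitals.
Tcl1, chr12:105222794-105222987, minus strand: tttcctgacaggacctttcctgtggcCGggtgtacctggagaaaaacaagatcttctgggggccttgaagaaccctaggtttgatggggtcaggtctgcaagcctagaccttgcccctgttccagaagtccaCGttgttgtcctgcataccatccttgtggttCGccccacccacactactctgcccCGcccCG
L1td1, chr4:98726504-98726697, plus strand: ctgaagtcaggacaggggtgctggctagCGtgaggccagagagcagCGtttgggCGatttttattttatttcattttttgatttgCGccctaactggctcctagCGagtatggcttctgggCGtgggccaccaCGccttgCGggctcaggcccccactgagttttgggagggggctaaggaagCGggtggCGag

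The *Tcl1* window held 5 CG dinucleotides and the *L1td1* window 10, where 53.8% and 71.9% of 32851 windows of the same length held fewer. The GC box GGGCGG, read on both strands, occurred 1 time for *Tcl1* and 0 times for *L1td1*, and 23.6% of all windows held it. The short motif CACCC occurred 2 times in each, also on either strand and in 43.4% of windows. The octamer ATGCAAAT and the TATA motif TATAAA occurred in neither and in 1.28% and 8.90% of windows. These matches describe letters only.

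Of the relatives and pathway partners of *Tcl1*, 9 of 14 listed genes were tested. Of the tested genes 2 rose and 3 fell in ESC + H/F-PRAMEL7WT by limma's adjusted p. In ESC + H/F-PRAMEL7ΔN 0 were called by limma or by voom on the recovered reads. Limma's unadjusted p passed 0.05 there for 1 higher and 1 lower gene. Over all tested genes limma called 25% in ESC + H/F-PRAMEL7WT and 19.9% in ESC + H/F-PRAMEL7ΔN. *Akt1* rose in ESC + H/F-PRAMEL7WT from 47.1 to 85.7 CPM (log2 fold change 0.85, adjusted p = 0.00116). *Rictor*, a subunit of the mTORC2 complex that phosphorylates AKT, fell there from 40.2 to 28.0 CPM (-0.51, adjusted p = 0.00898). The neighbouring *Tcl1b1*, *Tcl1b3*, *Tcl1b4* and *Tcl1b5* had 0 reads in every library.

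*Tdh* converts threonine toward glycine and acetyl-CoA in mitochondria, a reaction on which mouse ESCs are known to depend. It lies on chromosome 14 (mm10, 63492347 to 63509092, minus strand, ENSMUSG00000021953.14). It had 752 and 753 CPM in parental ESCs, 721 and 703 with H/F-PRAMEL7WT, and 699 and 668 with H/F-PRAMEL7ΔN. The lines did not overlap, yet the distances were small. *Tdh* was not called in any comparison, with log2 fold changes of -0.08 and -0.14 against parental ESCs (standard error 0.08, limma adjusted p = 0.484 and 0.255) and 0.06 between the derived lines (adjusted p = 0.624). Non-overlapping libraries were the common case, since 64.2%, 57% and 68.8% of all tested genes had them in the 3 comparisons, against 4, 8 and 8 of the 9 members. The antisense gene *Gm17232* shares 66 exon bases with *Tdh*, so their reads could mix if the libraries did not mark strand. *Gm17232* had 0.552 to 0.745 CPM on average.

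The enzymes around *Tdh* were measured with 14 tested genes of 15 listed. The test called 1 higher and 2 lower in ESC + H/F-PRAMEL7WT, and 0 higher and 3 lower in ESC + H/F-PRAMEL7ΔN. It called 25% and 19.9% of all tested genes in the same comparisons. *Gldc*, the decarboxylase of the glycine cleavage system, fell in ESC + H/F-PRAMEL7ΔN from 628 to 367 CPM (log2 fold change -0.77, limma adjusted p = 0.000441) and had 700.1 CPM in ESC + H/F-PRAMEL7WT (adjusted p = 0.189). *Mthfd2*, a mitochondrial folate enzyme on chromosome 6, fell in both lines, from 201 CPM to 135 and 150.0 (-0.57 and -0.42, adjusted p = 0.00192 and 0.00651). *Shmt1*, the cytosolic serine hydroxymethyltransferase, fell in ESC + H/F-PRAMEL7ΔN (-0.30, adjusted p = 0.0379). It lies on chromosome 11, where 1102 tested genes had a median of -0.33 in that line.

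*L1td1* lies on chromosome 4 (mm10, 98726734 to 98738480, plus strand, ENSMUSG00000087166.9). It had 548 and 593 CPM in parental ESCs, 444 and 537 with H/F-PRAMEL7WT, and 536 and 553 with H/F-PRAMEL7ΔN. Both libraries of ESC + H/F-PRAMEL7WT were below the parental ones, and those of the derived lines overlapped. The log2 fold changes against parental ESCs were -0.22 and -0.07 (standard error 0.10, limma adjusted p = 0.135 and 0.695), and neither was called. Without parental library 1 the first was -0.28 and called (adjusted p = 0.0435). Without library 1 of ESC + H/F-PRAMEL7WT it was -0.0871 and without library 2 of that line -0.36, neither called (adjusted p = 0.683 and 0.106). The second ranged from -0.12 without parental library 1 to -0.0101 without parental library 2, also not called (adjusted p = 0.377 and 0.960).

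Other RNA-binding proteins of ESCs moved in both directions. Of 10 listed and tested, 2 rose and 4 fell in ESC + H/F-PRAMEL7WT, and 1 rose and 3 fell in ESC + H/F-PRAMEL7ΔN. Over all tested genes the called shares were 25% and 19.9%. *Lin28a*, which blocks let-7 maturation, had log2 fold changes of 0.05 and -0.01 (limma adjusted p = 0.755 and 0.977). *Mov10*, a helicase that restricts LINE-1 elements, rose in ESC + H/F-PRAMEL7WT from 268 to 394 CPM (0.56, adjusted p = 0.00589). *Igf2bp1* fell in both lines (-0.42 and -0.46, adjusted p = 0.0135 and 0.0105). It lies on chromosome 11, where tested genes had medians of -0.36 and -0.33 in the respective lines. The part of this shift in its fall was not tested. *Igf2bp3*, on chromosome 6, rose in ESC + H/F-PRAMEL7ΔN (0.75, adjusted p = 0.00105).

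The pathway of *Gdf3* held 15 tested genes of 17 listed. There, 4 rose and 2 fell in ESC + H/F-PRAMEL7WT, and 1 rose and 5 fell in ESC + H/F-PRAMEL7ΔN. Between the derived lines 5 were higher in ESC + H/F-PRAMEL7WT and 1 was lower. The 3 comparisons called 25%, 19.9% and 20.4% of all tested genes. The ligand *Nodal* had 33.8, 33.3 and 38.4 CPM and was not called (limma adjusted p = 0.893, 0.263 and 0.193). The feedback inhibitors *Lefty1* and *Lefty2*, which are targets of the pathway, had 49.0, 80.1 and 26.9 CPM and 265, 294 and 83.2 CPM in the 3 lines. *Lefty1* rose in ESC + H/F-PRAMEL7WT (0.70, adjusted p = 0.00557) and fell in ESC + H/F-PRAMEL7ΔN (-0.84, adjusted p = 0.00225). *Lefty2* fell in ESC + H/F-PRAMEL7ΔN (-1.66, adjusted p = 4.00e-06) but was not called in ESC + H/F-PRAMEL7WT (0.15, adjusted p = 0.194). *Smad3*, which carries the signal to the nucleus, rose in the first line and fell in the second (0.75 and -0.53, adjusted p = 0.00557 and 0.0251). These 3 genes had their lowest means in ESC + H/F-PRAMEL7ΔN, where *Gdf3* had its highest. *Nodal* and *Tdgf1* of the same list also had their highest means there, with 38.4 and 950 CPM. A relation of *Gdf3* to any of these genes was not tested.

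Other ESC-associated transcripts, 24 tested of 25 listed, served as a frame for the 9 genes. Among these, 5 rose and 8 fell in ESC + H/F-PRAMEL7WT, and 2 rose and 4 fell in ESC + H/F-PRAMEL7ΔN. Limma called 25% and 19.9% of all tested genes in the respective lines. The 2 that rose in ESC + H/F-PRAMEL7ΔN, *Phc1* and *Mkrn1*, lie on chromosome 6. *Rhox5*, a homeobox gene of the X chromosome, had 44.0, 137 and 7.27 CPM and rose in ESC + H/F-PRAMEL7WT (log2 fold change 1.63, limma adjusted p = 0.00089) and fell in ESC + H/F-PRAMEL7ΔN (-2.46, adjusted p = 4.95e-05). *Spp1*, which encodes osteopontin, and *Ifitm1*, an interferon-induced membrane protein, fell in ESC + H/F-PRAMEL7ΔN (-1.76 and -1.28, adjusted p = 9.63e-06 and 6.95e-05). *Nr0b1*, an orphan receptor that restrains OCT4, rose in ESC + H/F-PRAMEL7WT from 68.9 to 123 CPM (0.83, adjusted p = 0.000991). Of the 8 that fell in ESC + H/F-PRAMEL7WT, *Tex19.1* and *Trap1a* fell furthest (-0.62 and -0.59, adjusted p = 0.0155 and 0.00300). *Tex19.1* also fell in ESC + H/F-PRAMEL7ΔN (-0.73, adjusted p = 0.00812) and lies on chromosome 11, whose medians are given above.

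Genes with the pattern most like each member over the 6 libraries were found by Pearson's r of log2(CPM + 1), as a description of libraries that share 3 lines. For *Dppa3* they were *Calb2*, a calcium-binding protein (r = 0.997), with 66.2, 18.0 and 11.7 CPM in the 3 lines, and *Glis3*, a zinc finger factor (r = 0.996), with 16.1, 6.94 and 5.23 CPM. Of 425 genes whose range on the log2 scale was at least 0.5 of that of *Dppa3*, 57 had an r above 0.95. For *Fbxo15* they were *Gm13228* and *Tuba3b* (r = 0.997 and 0.993), for *Tcl1* *Rhox1* and *Rcsd1* (r = 0.999 and 0.998), and for *Gdf3* *Aven* and *Snora20* (r = 0.999 and 0.998). For *Dppa2* they were *Med6* and *Sri* (r = 0.991 and 0.988), for *Dppa4* *Dusp22* and *Tsc22d1* (r = 0.996 each), and for *Dppa5a* *Slc11a1* and *Stx2* (r = 0.989 each). For *Tdh* they were *Anxa6* and *Lsm11* (r = 0.997 and 0.991), and for *L1td1* *Gxylt1* and *Utp11* (r = 0.996 and 0.993). With so few libraries, 32 to 236 genes passed 0.95 for each member. Members were left out of this search, so it does not show how alike they were to each other. Among pairs of members, r was highest for *Dppa2* and *Gdf3* (0.94) and lowest for *Dppa4* and *Fbxo15* (-0.92).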

How the data were processed

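Reads had been cleared of ribosomal sequence (SortMeRNA), trimmed (Trimmomatic) and aligned to mm10 (STAR) by the authors, who deposited RPKM per gene from exon coverage (the labels' processing notes also list Bowtie2 2.3.4.3 and Subread 1.4.6-p4). The other deposited tables hold the authors' DESeq2 comparisons (fold changes, p-values) and were not used. The ChIP and input samples were not analysed here. The RPKM length was the gene span, so values were multiplied by the GENCODE vM21 span and by a constant to give CPM, keeping the authors' scaling. Of 50978 genes, 176 with repeated or date-like names, 2796 unmatched and 66 with several matches were left out. Genes above 1 CPM in at least 2 of 6 libraries were tested on log2(CPM + 1) with limma 3.58.1 (R 4.3.3), all 3 lines in a single fit and a trend of variance on mean. On simulated data for ESC + H/F-PRAMEL7WT against parental ESCs over 12708 genes, 88.1% of genes changed by 1 and 96.9% of those changed by 2 on the log2 scale were recovered, and 9 unchanged genes were called. The simulation gave all genes and lines the same biological spread, whereas replicate variance in the data was highest in the parental line. Its rates therefore need not hold for the data. Near-identical transcripts were sought with blastn 2.17.0 (at least 95% over 200 bases). Other steps ran in python 3.11.15 with pandas 2.3.3, numpy 2.4.6 and matplotlib 3.10.9.

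Named genes were the members, tested protein-coding neighbours within 250 kb, the 2 genes most like each member (range on the log2 scale at least 0.5 of the member's) and, per list, up to 4 called or highly expressed genes. Further neighbours and list genes, such as *Nanog*, *Mfap5*, *Nodal*, *Uhrf1*, *Dnmt1* and *Lin28a*, and genes at 0 were named for their roles or after their values were seen. A gene of the list of *Tcl1* partners is not reported here and was left out of its counts. The members and lists were chosen with earlier results of these data known. Alternatives were pseudocounts of 0.1 and 5, no filter, 10 CPM, a replicate block, only the compared lines, 3 scalings, limma without trend, voom on recovered reads, RPKM as deposited, another call rule and leaving out each library.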

Additional observations from a re-analysis of the deposited data

Results flagged for a closer look

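*Fbxo15* and *Tcl1* were flagged because their levels differed between the derived lines by the direct limma comparison. *Fbxo15* was higher in ESC + H/F-PRAMEL7WT by 0.73 on the log2 scale (adjusted p = 0.00176), with both libraries of that line above both of ESC + H/F-PRAMEL7ΔN. *Tcl1* was higher by 0.37 (adjusted p = 0.0143), with the same order of libraries. Their neighbours within 5 Mb had medians of 0.07 and -0.02 in this comparison.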

How the results depend on the processing

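Of 474 values of the 9 genes under the alternatives, 422 kept their direction and their side of the limma threshold, 23 gained a call, 23 lost one and 6 changed sign. The sign changes were of values not called, namely *Dppa2* without parental library 2 (range over left-out libraries -0.10 to 0.67), *Dppa5a* without library 2 of ESC + H/F-PRAMEL7WT (-0.000495 to 0.20), *Fbxo15* without parental library 1 (-0.13 to 0.0463), and *Tdh* and *Fbxo15* with median-ratio scaling (0.00948 and 0.0469), all in ESC + H/F-PRAMEL7WT against parental ESCs, and *L1td1* with median-ratio scaling in ESC + H/F-PRAMEL7ΔN (0.00654). Of the 9 genes, 1 was called in ESC + H/F-PRAMEL7WT against parental ESCs. This became 0 with a filter of 10 CPM or RPKM as deposited, both of which removed *Dppa3* from the test, and 1 to 4 when a library was left out. The 5 called in ESC + H/F-PRAMEL7ΔN became 3 with no filter, 2 without trend, 2 with an unadjusted p and a log2 limit of 0.58, 0 with RPKM as deposited, which left out *Fbxo15* as well, and 2 to 6 when a library was left out. The 2 called between the derived lines became 7 with only the compared lines, 4 with voom on recovered reads (which called 3162, 2510 and 2552 of all genes in the 3 comparisons), 1 with RPKM as deposited, 1 with the unadjusted p and log2 limit, and 1 to 7 when a library was left out. It was 7 without either parental library, where *Dppa2*, *Dppa3*, *Dppa4*, *Dppa5a* and *Gdf3* gained calls. RPKM as deposited tested 2347 genes. Apart from these constructions, the cause was not tested.

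The labels number the libraries of each line but do not say whether equal numbers were handled together. The correlations below, from 2 libraries per line, cannot decide this. Deviations of replicate 1 correlated at 0.21 between parental ESCs and ESC + H/F-PRAMEL7WT, -0.25 between parental ESCs and ESC + H/F-PRAMEL7ΔN, and -0.10 between the derived lines. With a replicate block the counts were 1, 4 and 2 of the 9 genes, and 2729, 2112 and 2181 of all tested genes. *Dppa4* in ESC + H/F-PRAMEL7ΔN passed the threshold no longer (adjusted p = 0.0521).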
